A study of Mus musculus with 30 samples.

Results

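The comparison is of the mouse digit tip 7 d after amputation with the digit tip at 0 h. Libraries were taken by the time point in their labels, which gave 6 mice at 7 d and 3 mice at 0 h, 9 of the 30 mice of a time course over 9 time points. The mice were adult male C57Bl/6, 9 to 10 weeks old, with no transgene or agent named. The distal phalanx (P3) of hindlimb digit 3 was amputated, with at most 33% of the bone removed by microCT, and the skin was not sutured. The collected P3 tissue was not sorted, so that bone, nail, epidermis and connective tissue are mixed in each library. In such bulk tissue, fewer cells of a type and less RNA per cell cannot be told apart. All 0 h mice and 3 of the 6 mice at 7 d are labelled Right, and the other 3 at 7 d (replicates 3, 4 and 6) are labelled Left. Dates in the titles fall into an earlier campaign (1 mouse at 0 h, 2 at 7 d) and a later campaign (2 at 0 h, 4 at 7 d), and the labels do not say what the date marks. The titles also carry a code whose meaning the labels do not give. The same code stands with the same date and foot on 0 h replicate 3 and a 12 h library, the codes of 7 d replicates 1 and 4 recur with other dates at 24 h and 3 d, and both earlier mice at 7 d share a code number, so that the labels do not settle whether these libraries are independent. The study's methods give a total of 30 mice.

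The mouse digit tip can regrow bone, nail and skin after a distal cut. Known steps are the degradation of the bone stump by osteoclasts, closure of the epidermis, growth of a mass of undifferentiated cells called the blastema, and new bone formed directly from connective tissue without a cartilage model. Osteoclasts are large bone-resorbing cells made by fusion of macrophage precursors. The cytokine RANKL (gene Tnfsf11) drives this through its receptor RANK (Tnfrsf11a), the decoy receptor osteoprotegerin (Tnfrsf11b) blocks it, and CSF1 keeps the precursors alive through its receptor Csf1r.

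Total expected counts of the 9 mice ran from 3502002 to 12773273. Replicate 3 at 7 d stood apart from the other libraries. It had 12191 genes with a count, against 13937 to 14830 in the other 7 d mice, and lay at 142.8 on the first principal component, where the other 8 mice lay between -44.54 and 9.73. Its total of 6046501 counts was within the range of the others, and the counts of called genes without it are given where they differ. Epidermal keratins, nail keratins and the bone genes Ibsp, Dmp1 and Phex had counts in all 9 mice. The bone genes Bglap, Sost and Ifitm5 had no count in some of them. The 12 listed skeletal muscle genes, of which 6 were tested, summed to 7.43 to 32.3 TPM at 7 d and 18.1 to 153.8 TPM at 0 h.

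Expression at 7 d differed from 0 h in 528 of 13793 tested genes (3.83%), by edgeR's quasi-likelihood test of all 30 mice with campaign as a term and an adjusted p (Benjamini-Hochberg) under 0.05. The genes higher at 7 d were 345 (2.50%), and 217 of them were at least 2-fold higher. The genes lower at 7 d were 183 (1.33%), and 64 of them were at least 2-fold lower. Of the called genes, 32 rose at least 8-fold and 8 fell at least 8-fold. Every 7 d mouse was above every 0 h mouse in 540 of the tested genes (3.92%) and below in 475 (3.44%), and 396 of the called genes were among these (273 higher, 123 lower). The count depends on each 0 h mouse, since it was 168, 270 and 221 genes without 0 h replicates 1, 2 and 3. Without 7 d replicate 3 it was 514 genes, 438 of them shared with the 528.

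**Figure D1:**
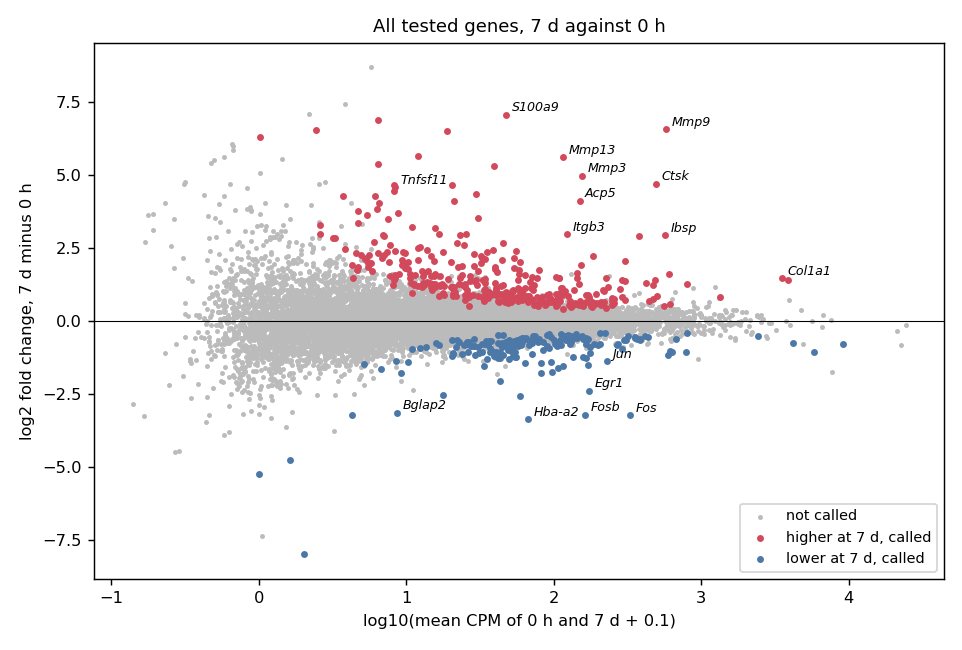
Each point is a tested gene, with the log10 of its mean CPM over 0 h and 7 d (plus 0.1) on the horizontal axis and its log2 fold change, 7 d minus 0 h, on the vertical axis. Red points are the 345 genes called higher, blue points the 183 called lower and grey points the genes not called, and the osteoclast genes Mmp9 and Ctsk combine a large rise with a high level.

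Most genes with the largest rise were of 3 kinds. The largest changes were ranked among called genes whose groups did not overlap and whose higher group averaged 5 CPM or more. CPM are read counts relative to TMM-scaled library size. Among the 15 with the largest rise, Mmp9, Ctsk, Dcstamp, Atp6v0d2 and Slc9b2 are known from osteoclasts. Tnfsf11 encodes RANKL, the signal that drives osteoclast formation. S100a8, S100a9, Il1b, Cxcl2 and Slpi are known from inflammation. Mmp3, Mmp13 and Timp1 act on extracellular matrix, and Apln encodes the peptide apelin. The 15 with the largest fall included the immediate early genes Fos, Fosb, Egr1, Zfp36 and Dusp1. Among them were also the osteocalcin gene Bglap2, its neighbouring copy Bglap3, and the epidermal genes Lce1e, Lce1l, Klk9 and Nccrp1. The others were Nov, a secreted matricellular protein, Car3, a carbonic anhydrase of fat and muscle, the neuropeptide gene Nmu and Cox20, which helps to assemble cytochrome oxidase. Nov was at 59.6, 78.9 and 69.8 CPM at 0 h and at 10.1 to 22.5 CPM at 7 d (-2.08 ± 0.45 SE, edgeR adjusted p = 0.0056). Without 0 h replicate 1, Lce1e, Lce1l and Nccrp1 lost their calls, and Car3, Nmu and Cox20 lost theirs without any 1 of the 0 h mice or 7 d replicate 5. Nmu and Cox20 also lost theirs without 7 d replicate 1 or 6, Nmu without 7 d replicate 4 and Cox20 without 7 d replicate 3.

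Osteoclast genes rose at 7 d. Of 16 osteoclast genes tested, 10 were higher and none was lower, where 2.50% of all tested genes were called higher. The median log2 fold change was 1.59, against -0.03 over all tested genes. Every called member but Tnfrsf11a was higher in all 6 mice at 7 d than in any 0 h mouse. Without 7 d replicate 3, 11 members were called and the median was 1.57. The summed level of the whole list was 281.8, 289.0 and 403.1 TPM in the 3 mice at 0 h and 1807 to 5565 TPM at 7 d, with the highest sums, 5565 and 5007 TPM, in both mice of the earlier campaign.

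Ctsk (ENSMUSG00000028111, GRCm38 chr3:95499256-95509362, plus strand) encodes cathepsin K, the protease that digests bone collagen. Its level was 29.8, 41.2 and 40.8 CPM at 0 h, and at 7 d the lowest mouse had 567.0, the median was 976.8 and the highest had 1316 CPM. This is a 25.5-fold rise (log2 fold change 4.67 ± 0.36 SE, edgeR adjusted p = 2.21e-09). Mmp9 (chr2:164948219-164955850, plus strand), a gelatinase that osteoclasts and neutrophils both make, was at 7.52, 6.61 and 24.2 CPM at 0 h and at 675.1, 1027 and 1943 CPM in the lowest mouse, the median and the highest mouse at 7 d. The rise was 93.5-fold (6.55 ± 0.58 SE, edgeR adjusted p = 2.64e-08). In both genes every 7 d mouse lay far above every 0 h mouse.

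Acp5 (chr9:22126727-22135711, minus strand) encodes the tartrate-resistant acid phosphatase by which osteoclasts are stained. It was at 11.9, 8.42 and 25.9 CPM at 0 h and at 98.2 (lowest), 181.3 (median) and 584.8 CPM (highest) at 7 d, a rise of 4.10 ± 0.47 SE on the log2 scale (edgeR adjusted p = 1.82e-06). The mice of the earlier campaign, at 584.8 and 555.8 CPM, stood above the 4 later mice, none of which passed 181.9 CPM. Within campaigns, the difference in log2(CPM + 1) was 4.41 (earlier) and 3.64 (later).

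Itgb3 (chr11:104608000-104670476, plus strand), the beta chain of the integrin that binds osteoclasts to bone, rose from 21.0, 37.3 and 27.4 CPM to 127.6 (lowest), 215.2 (median) and 330.0 CPM (highest), a 7.77-fold change (2.96 ± 0.33 SE, edgeR adjusted p = 1.35e-06). Atp6v0d2, a subunit of the proton pump that acidifies the resorption pit, rose from 1.44, 0.640 and 4.00 CPM to between 28.4 and 162.9 CPM (5.29 ± 0.70 SE). Slc9b2, a sodium and proton exchanger of osteoclasts that was not on the list, rose from 4.00, 2.35 and 2.40 CPM to between 22.9 and 76.4 CPM (4.33 ± 0.54 SE). Genes of fusion and identity rose as well. Dcstamp, needed for fusion, had counts in 1 of the 3 mice at 0 h (0.746 CPM) and 5.06 to 28.5 CPM at 7 d. Nfatc1, the transcription factor that directs osteoclast formation, rose 2.78-fold, from 33.4 to 43.7 CPM at 0 h to 78 to 157.2 CPM at 7 d (edgeR adjusted p = 0.00013).

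Tcirg1, another proton pump subunit, and Oscar, a costimulatory receptor, were also called and are named after their values were seen. Tcirg1 rose 3.27-fold. Oscar rose from at most 0.640 CPM to 2.21 to 11.8 CPM, and this call (edgeR adjusted p = 0.028) was lost when any 0 h mouse or 7 d replicate 5 was left out. Not every osteoclast gene passed the test. The carbonic anhydrase Car2 (log2 fold change 0.66, adjusted p = 0.35), the chloride channel Clcn7 (0.33, adjusted p = 0.61), the kinase Src (0.64, adjusted p = 0.052) and the fusion gene Ocstamp (1.0, adjusted p = 0.28) did not, in the edgeR test. For Car2 the difference in log2(CPM + 1) was -0.68 (earlier campaign) and 1.2 (later campaign), and for Clcn7 it was 1.0 and -0.16. The calcitonin receptor Calcr, a marker of mature osteoclasts, was too low to test, at 9 counts over the 6 mice at 7 d and 0 over the 3 mice at 0 h.

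**Figure D2:**
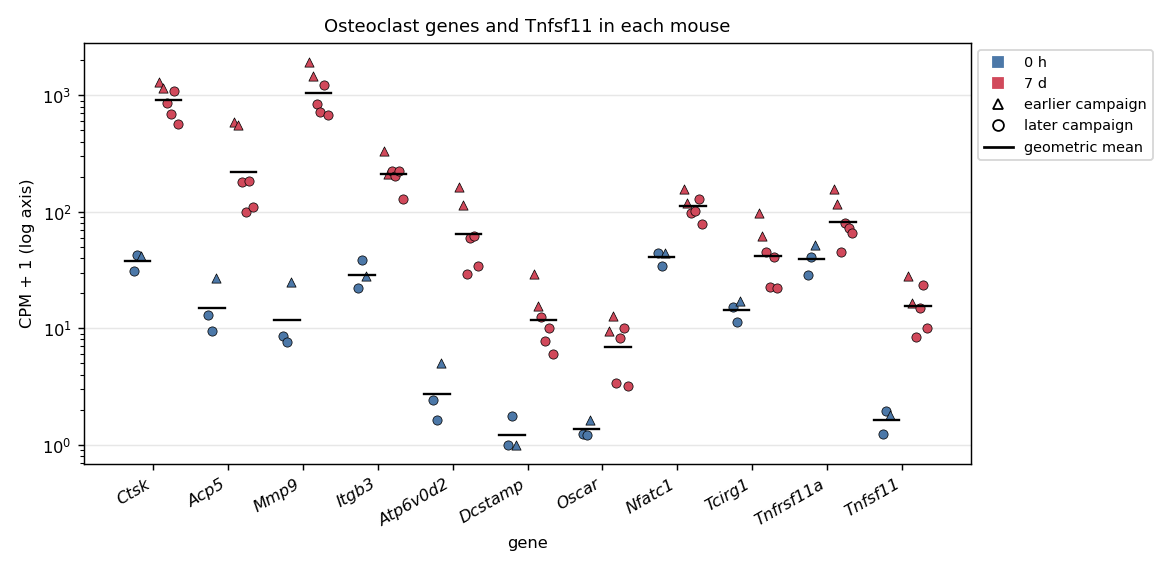
The 10 called osteoclast genes and Tnfsf11 are shown in each mouse, as CPM + 1 on a log axis, with blue for 0 h, red for 7 d, triangles for the earlier and circles for the later campaign, and a bar at the geometric mean. In all but Tnfrsf11a the red points lie above all blue points, and for Acp5 both triangles at 7 d lie above the circles.

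The signals for osteoclast formation did not move together. Tnfsf11, which encodes RANKL (chr14:78277445-78308043, minus strand), was at 0.240, 0.959 and 0.800 CPM at 0 h and at 7.39 (lowest), 14.7 (median) and 26.9 CPM (highest) at 7 d. It rose 23.7-fold (4.57 ± 0.66 SE, edgeR adjusted p = 6.02e-05), with no overlap between the groups. Its decoy receptor Tnfrsf11b was at 7.12, 7.14 and 5.28 CPM at 0 h and at 4.25 to 19.7 CPM at 7 d, and the change of 0.37 ± 0.54 SE did not pass the test (edgeR adjusted p = 0.81). The receptors rose, Tnfrsf11a by 2.15-fold (adjusted p = 0.0033) and Csf1r by 3.33-fold (adjusted p = 0.005). At 0 h Csf1r had 21.5 to 27.0 CPM, and at 7 d it had 198.4 and 171.9 CPM in the earlier campaign and 37.6 to 61.8 CPM in the later one. The ligand Csf1 had a log2 fold change of 0.41 ± 0.25 SE (adjusted p = 0.44). Tnfrsf11a lost its call without 0 h replicate 1, and Csf1r without 0 h replicate 3.

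Among listed genes of bone formation, some matrix genes rose, the osteocalcin gene Bglap2 fell and 13 of 19 were not called. Of these 19 genes of osteoblasts and osteocytes, 5 were higher, 1 was lower, and the median log2 fold change was 0.33. The shares of all tested genes called higher and lower were 2.50% and 1.33%. Ibsp, the bone sialoprotein of mineralizing matrix, was at 128.2, 236.7 and 56.0 CPM at 0 h and at 579.5 (lowest), 951.2 (median) and 1515 CPM (highest) at 7 d, a 7.57-fold rise (2.92 ± 0.40 SE, edgeR adjusted p = 2.70e-05). Spp1, osteopontin, which osteoclasts and macrophages make as well, rose 7.39-fold, from 65.9, 100.9 and 87.4 CPM to 324.0 to 1095 CPM. Cthrc1, a secreted protein of activated fibroblasts and bone cells, rose 6.38-fold, from 2.56 to 7.78 CPM to 17.4 to 47.0 CPM. Col1a1 (chr11:94936224-94953042, plus strand), the main collagen of bone, rose 2.72-fold, from 1544, 2865 and 1111 CPM to between 3567 and 6327 CPM (1.44 ± 0.32 SE, edgeR adjusted p = 0.0074), a call lost without 0 h replicate 1 or 3. The fifth, Sparc, rose 1.75-fold with overlapping mice and an edgeR adjusted p of 0.044, and this call was lost in 15 of the alternatives tried.

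Bglap2, which encodes osteocalcin, a product of mature osteoblasts, was the member that fell. It was at 12.9, 20.2 and 13.3 CPM at 0 h and at 0 to 4.43 CPM at 7 d with a median of 1.71 CPM (-3.15 ± 0.57 SE, edgeR adjusted p = 0.0011). The neighbouring copies Bglap and Bglap3 were also below all 0 h mice in all 6 mice at 7 d. Bglap3 passed the test (-1.65 ± 0.41 SE, adjusted p = 0.017), though not without 0 h replicate 1 or 2, and Bglap did not (-2.51 ± 0.79 SE, adjusted p = 0.07). These copies are nearly identical, so that the split of reads between them is uncertain. The osteocyte genes Dmp1 (0.18, adjusted p = 0.87), Phex (-0.76, adjusted p = 0.46) and Sost (-1.22, adjusted p = 0.65) and the osteoblast factor Sp7 (0.68, adjusted p = 0.36) did not pass the edgeR test. Alpl, the phosphatase of mineralizing cells, was above all 0 h mice in all 7 d mice, at 45.8 to 66.7 against 23.0 to 25.9 CPM, with an adjusted p of 0.061.

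Matrix-degrading enzymes rose broadly. Of 20 genes of metalloproteinases, their inhibitors and the plasminogen system, 11 were higher and none lower, with a median log2 fold change of 1.79. The share called higher among all tested genes was 2.50%. Mmp13 (chr9:7272514-7283331, plus strand), the collagenase of bone and cartilage, was at 3.04, 1.60 and 9.28 CPM at 0 h and at 76.1 (lowest), 146.1 (median) and 495.3 CPM (highest) at 7 d (5.59 ± 0.62 SE, edgeR adjusted p = 1.45e-06). Mmp3 (chr9:7445822-7455975, plus strand), stromelysin 1, was at 9.68, 7.57 and 9.28 CPM at 0 h and spread widely at 7 d. There, 3 mice had 66.5 to 67.6 CPM and 3 had 454.1 to 629.6 CPM (4.95 ± 0.73 SE, edgeR adjusted p = 6.86e-05). The high mice came from both campaigns, both earlier mice and replicate 5 of the later, and the low mice are the 3 labelled Left. The part of foot or campaign in this spread was not tested.

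The letters of the AP-1 site, TGACTCA, which read on the opposite strand are TGAGTCA and which the dimer of Fos and Jun proteins is known to bind, stand close to the start of both genes. The 250 bases before the start are shown for Mmp3 and Mmp13 (RefSeq, GRCm38.p6, gene strand, 5′ to 3′, plus strand for both), at chr9:7445572-7445821 and chr9:7272264-7272513, with that site in capitals.
Mmp3: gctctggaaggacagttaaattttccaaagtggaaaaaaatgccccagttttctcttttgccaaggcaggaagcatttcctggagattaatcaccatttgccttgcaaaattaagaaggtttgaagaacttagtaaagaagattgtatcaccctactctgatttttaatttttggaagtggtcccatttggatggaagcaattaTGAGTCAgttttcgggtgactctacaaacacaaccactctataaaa
Mmp13: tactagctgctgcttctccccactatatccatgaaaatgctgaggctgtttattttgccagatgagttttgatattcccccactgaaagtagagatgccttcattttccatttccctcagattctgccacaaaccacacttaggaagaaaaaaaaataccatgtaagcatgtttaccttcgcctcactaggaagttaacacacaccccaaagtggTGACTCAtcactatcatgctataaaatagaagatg
The site begins 46 bases before the start in Mmp3 and 35 bases before it in Mmp13. It is in 4.46% of all 32851 windows of this kind. Of tested genes, 10365 of 13793 matched a window, and 4.46% of them had the site, against 22 of 243 genes higher at 7 d (9.05%) and 13 of 148 genes lower at 7 d (8.78%). A match of letters is a description of the window and not a bound site.

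Other members of the group rose as well. Timp1, an inhibitor of metalloproteinases, was at 1.04, 2.03 and 1.28 CPM at 0 h and at 23.6 (lowest), 34.6 (median) and 60.6 CPM (highest) at 7 d, a 25.3-fold rise (edgeR adjusted p = 4.99e-07). Its relatives Timp2 (log2 fold change 0.31, adjusted p = 0.49) and Timp3 (-0.14, adjusted p = 0.79), did not pass. Mmp14, a membrane-bound enzyme that activates other metalloproteinases, rose 2.39-fold, from 75.4 to 101.7 CPM to 184.4 to 235.1 CPM. Adamts4, which cleaves the proteoglycan aggrecan, rose 7.76-fold. Named after its values were seen, Plaur, the urokinase receptor, rose 5.14-fold. The gelatinase Mmp2 changed by 0.66 ± 0.25 SE on the log2 scale and did not pass (adjusted p = 0.16). Other called members were Mmp9, Mmp12, Adam8 and Mmp19, of which Adam8 and Mmp19 lost their calls without 0 h replicate 1 or 3 and Mmp12 without any 1 of the 0 h mice or 7 d replicate 1 or 5. Mmp19 shares 789 exon bases with Tmem198b, so its count is uncertain.

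Genes of provisional and fibrillar matrix rose in the same direction with smaller folds. Of 26 tested, 13 were higher and none lower, with a median log2 fold change of 1.14. In 16 of them all 7 d mice were above all 0 h mice. Among all tested genes, 2.50% were called higher and 3.92% had all 7 d mice above all 0 h mice. Tnc, tenascin C, a protein of wound and embryonic matrix, was at 62.2, 57.9 and 73.3 CPM at 0 h and at 200.3 (lowest), 294.7 (median) and 410.5 CPM (highest) at 7 d (2.22 ± 0.29 SE, edgeR adjusted p = 1.60e-05). Col12a1 rose 3.75-fold, from 59.9 to 68.4 CPM to 208.3 to 269.6 CPM, Col6a3 rose 4.09-fold and P4ha3, a subunit of the enzyme that hydroxylates collagen, 5.64-fold. Inhba, which encodes the activin A chain, rose 4.61-fold, from 9.28 to 14.2 CPM to 36.5 to 65.6 CPM. Col3a1 and Postn, periostin, rose 2.62-fold and 2.65-fold. Col3a1 lost its call without 0 h replicate 1 or 3, and Postn without 0 h replicate 3.

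Members of the chemokine, cytokine and neutrophil lists rose, and 3 granule genes of neutrophils had counts in 1 or 2 mice only. Of 18 chemokine and cytokine genes tested, 8 were higher and none lower, where 2.50% of all tested genes were called higher. The median log2 fold change was 3.63. It was 3.49 with the 2 members without a count at 0 h set at the bound that 3 counts over the group give. Il1b, interleukin 1 beta, was at 0.240, 0.107 and 1.28 CPM at 0 h and at 7.43 (lowest), 15.5 (median) and 60.9 CPM (highest) at 7 d (5.63 ± 1.0 SE, edgeR adjusted p = 0.00087). Cxcl2, which draws neutrophils, was at 0, 0.426 and 0.960 CPM at 0 h and at 9.45 to 128.9 CPM at 7 d (edgeR adjusted p = 0.00099). Its relative Cxcl1 rose from 2.0, 1.49 and 9.76 CPM to 26.3 to 151.7 CPM, a call lost without 0 h replicate 1 or 2. Reads of these neighbouring family members may be split between copies. Lif, leukemia inhibitory factor, was at 1.92, 2.99 and 1.92 CPM at 0 h and at 9.05 (lowest), 38.9 (median) and 64.2 CPM (highest) at 7 d, a 17.2-fold rise (4.10 ± 0.52 SE, adjusted p = 1.01e-05). Il6 had 1 count over the 3 mice at 0 h and 181 over the 6 mice at 7 d, a ratio of 143.0 after scaling (95% counting interval 25.3 to 5677). Ccl7, Ccl9 and, named after its values were seen, Cxcl5 were the other called members, and Cxcl5 lost its call without any 1 of the 0 h mice or 7 d replicate 4.

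Of 16 neutrophil genes tested, only S100a8, S100a9 and Lcn2 were higher in the edgeR test, and none was lower. That test called 2.50% of all tested genes higher. The median log2 fold change was 2.52. Ngp, Ltf and Camp, none of them called, enter it at 7.42, 8.68 and 7.06. S100a9 (chr3:90692632-90695721, minus strand) was at 0.720, 0.640 and 0.800 CPM at 0 h and at 37.0 (lowest), 100.9 (median) and 132.9 CPM (highest) at 7 d (7.05 ± 0.90 SE, edgeR adjusted p = 1.02e-05). Its partner S100a8 had 2 counts at 0 h and 401 at 7 d, a ratio of 158.4 (95% counting interval 43.6 to 1312), with 26.4 and 24.6 CPM in the earlier campaign and 2.69 to 12.6 CPM in the later. These calgranulins are made by neutrophils, monocytes and stressed keratinocytes, and Lcn2 by neutrophils and epithelium. The granule genes Ngp, Ltf and Camp had no count at 0 h. At 7 d replicate 1 had 44.8, 58.0 and 22.3 CPM of them, replicate 6 had 0, 9.96 and 2.69 CPM, and the other 4 mice had none, so that 1 or 2 libraries hold all of this signal. Retnlg had a median of 0.193 CPM at 7 d. The whole neutrophil list summed to 60.6 to 109.4 TPM at 0 h and 419.4 to 1011 TPM at 7 d, and the part of neutrophils in the rise of S100a9, Il1b or Mmp9 was not tested.

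Calls in the macrophage and antigen presentation lists stand beside the 3.83% of all tested genes that were called, 2.50% higher. Of 20 macrophage genes tested, Csf1r was higher, none was lower, and the median log2 fold change was 0.41. With 1 call among 20 genes, this is near that share and is not a result about macrophages. The list summed to 1545 to 1839 TPM at 0 h and 1673 to 2250 TPM at 7 d, where 4 of the 6 mice lay above every 0 h mouse. C1qa, a complement gene of resident macrophages, was at 12.2, 17.4 and 12.0 CPM at 0 h and at 6.01 (lowest), 12.0 (median) and 25.5 CPM (highest) at 7 d. C1qb (0.49, adjusted p = 0.65) and Lyz2 (0.36, adjusted p = 0.55) did not pass the edgeR test either. Cd68, a lysosomal gene of macrophages and osteoclasts, was at 55.9 and 42.7 CPM in the 7 d mice of the earlier campaign and at 2.22 to 8.73 CPM in the 4 later ones, against 3.41 to 6.24 CPM at 0 h, and did not pass (1.41 ± 0.66 SE, adjusted p = 0.28). Arg1, often used as a marker of repair macrophages, was below all 0 h mice in all 6 mice at 7 d, at 67.4 to 109.3 against 121.6 to 167.3 CPM, with an edgeR adjusted p of 0.07. Of 11 genes of antigen presentation and Langerhans cells, the class II genes H2-Eb1 (2.32-fold, adjusted p = 0.012) and H2-Aa (1.97-fold, adjusted p = 0.012) rose. H2-Eb1 lost its call without 0 h replicate 1 or 3, and H2-Aa without any 1 of the 0 h mice.

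Immediate early genes were lower at 7 d than at 0 h. Of 20 tested, 8 were lower and none higher, where 1.33% of all tested genes were called lower. The median log2 fold change was -0.68. The list summed to 2049 to 2965 TPM at 0 h and 880.3 to 1239 TPM at 7 d. Fos (chr12:85473890-85477273, plus strand), a partner in the AP-1 factor, was at 555.8, 455.2 and 779.9 CPM at 0 h and at 35.1 (lowest), 63.7 (median) and 77.4 CPM (highest) at 7 d, 9.43-fold lower (-3.24 ± 0.37 SE, edgeR adjusted p = 1.77e-06). Fosb fell 9.31-fold, from 231.0, 223.1 and 435.0 CPM to 12.8 to 43.0 CPM. Egr1, a zinc finger factor induced by growth factors and injury, fell 5.27-fold, from 282.9 to 315.3 CPM to 33.4 to 96.5 CPM. Jun, the other AP-1 partner, fell by 1.4 on the log2 scale, from 315.5, 384.7 and 288.0 CPM to 75.4 to 176.5 CPM. In all of these the 7 d mice lay below every 0 h mouse. At the other times tested beside them, Fos was at 57.9 to 103.7 CPM at 3 d and 41.8 to 101.4 CPM at 14 d, also below every 0 h mouse.

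Dusp1, a phosphatase that turns off stress kinases, fell 3.36-fold, Zfp36, which degrades cytokine messages, 3.49-fold and Btg2, a growth inhibitor, 2.44-fold. Zfp36 was at 3.69 CPM in 7 d replicate 3 and at 39.0 to 50.3 CPM in the other 7 d mice. Btg2 fell from 213.7, 203.9 and 264.6 CPM to 52.3 to 143.4 CPM, with differences in log2(CPM + 1) of -2.23 (earlier campaign) and -0.74 (later campaign), and lost its call without 0 h replicate 3. The window before Btg2, at chr1:134079156-134079405 (RefSeq, GRCm38.p6, minus strand, 5′ to 3′), is shown because it holds the letters of a cAMP response element, TGACGTCA (the same on both strands), here in capitals.
Btg2: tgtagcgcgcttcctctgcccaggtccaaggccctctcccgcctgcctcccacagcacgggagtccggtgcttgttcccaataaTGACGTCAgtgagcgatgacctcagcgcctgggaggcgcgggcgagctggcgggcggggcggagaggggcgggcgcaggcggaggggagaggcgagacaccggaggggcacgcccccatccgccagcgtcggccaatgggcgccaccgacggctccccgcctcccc
It begins 166 bases before the RefSeq start. That start lies further upstream than the start of Btg2 in the annotation used for coordinates, and the bases after it were not found in a transcript there. These letters are in 1.55% of all windows, in 298 of the 10365 tested genes with a window (2.88%), in 3.29% of the genes higher at 7 d and in 3.38% of the genes lower. The CRE letters are also in the window of Dusp1 and in those of Flt1 and H2-Aa, which rose. Neither motif is in the window of Fos, Fosb or Jun. The eighth called gene, Atf3, named after its values were seen, was at 68.3 CPM in 1 mouse at 0 h and 10.7 and 14.3 CPM in the others. The groups overlapped, and the call was lost without 0 h replicate 1 or 3 or 7 d replicate 1, 2 or 6.

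**Figure D3:**
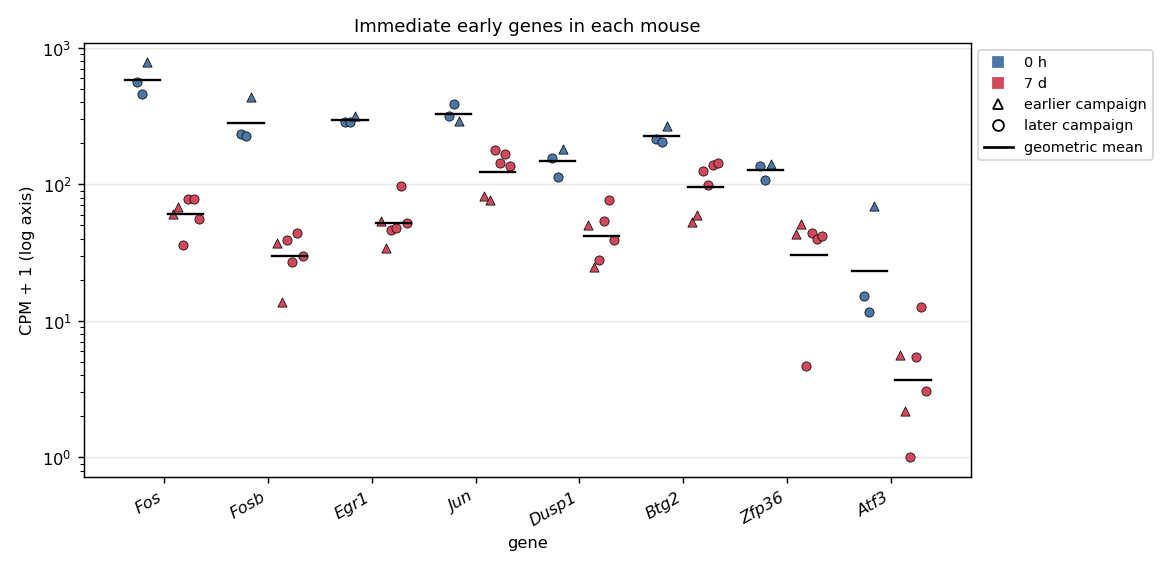
The 8 called immediate early genes are shown in each mouse, as CPM + 1 on a log axis, with blue for 0 h, red for 7 d, triangles for the earlier and circles for the later campaign, and a bar at the geometric mean. The red points lie below all blue points except in Atf3, and the single low red point of Zfp36 is 7 d replicate 3.

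Globin genes fell together with a wide spread at 0 h. Of 5 erythroid genes tested, 3 were lower, with a median of -3.25, where 1.33% of all tested genes were called lower. Hba-a2 was at 32.9, 201.5 and 130.4 CPM at 0 h and at 0 (lowest), 8.09 (median) and 45.6 CPM (highest) at 7 d (-3.37 ± 0.67 SE, edgeR adjusted p = 0.0028). Hbb-bs and Alas2, an enzyme of heme synthesis in red cells, were the other called members, and all 3 overlapped between groups and lost their calls without 0 h replicate 2, the mouse with the highest sum, Alas2 also without either other 0 h mouse or 7 d replicate 1, 3, 4 or 6. The list summed to 220.1, 1523 and 784.2 TPM in the mice at 0 h, and to 40.8 to 357.4 TPM at 7 d, and the part of blood left in the digit was not tested. Globin copies are nearly identical, and their split of reads is uncertain.

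Calls in the lists of epidermal genes stand beside the 3.83% of all tested genes that were called. The summed level of resting epidermis genes was lower in every mouse at 7 d (56250 to 85720 TPM) than at 0 h (91330 to 100300 TPM). TPM are shares of a whole, and the part of this fall in the rise of other lists was not tested. Of 27 genes of wounded epidermis, 1 was higher and 3 were lower, with a median of -0.01, and the wound keratins Krt6a (-0.16 ± 0.26 SE, adjusted p = 0.82) and Krt16 (0.20 ± 0.40 SE, adjusted p = 0.86) did not pass the edgeR test. Krt6a was at 1364 to 1880 CPM at 0 h and 1021 to 1639 CPM at 7 d. Slpi, an antiprotease of epithelium and neutrophils, was the member that rose, from 0.240, 1.1 and 0.960 CPM to 8.68 to 21.0 CPM (4.44 ± 0.73 SE, adjusted p = 0.00033). Tgm1, which cross-links the cornified envelope, fell 1.55-fold and Sprr1b, an envelope precursor, 2.85-fold, and without 0 h replicate 3 neither was called, nor was Tgm1 without 0 h replicate 1. Of 17 genes of resting epidermis, Lce1b was lower and none was higher, with a median of -0.53. The call of Lce1b was lost without any 1 of the 0 h mice or 7 d replicate 3, 4, 5 or 6. Krt1, a keratin of differentiated layers, was at 28680, 27330 and 28250 CPM at 0 h and at 9146 (lowest), 18300 (median) and 21990 CPM (highest) at 7 d, below all 0 h mice, with an adjusted p of 0.096. Krt5 and Krt14 of the basal layer did not pass (adjusted p of 0.22 and 1.0).

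Some epidermal genes had unlike values in the campaigns. For Lce1e the difference in log2(CPM + 1) was -0.39 (earlier) and -2.27 (later), and for Krt16 it was -1.21 and 0.95. Lce copies are similar in sequence. No gene passed the test of a difference between campaigns (edgeR interaction, 0 of 13587 genes at an adjusted p under 0.05, 1343 at an unadjusted p under 0.05). Of 19 genes of nail and hair, none was called at 7 d against 0 h, where 3.83% of all tested genes were. Krt31 was at 693.6, 447.9 and 359.8 CPM at 0 h and at 322.5 (lowest), 511.5 (median) and 776.6 CPM (highest) at 7 d, and Krt81 was at 822.2 to 1500 and 586.2 to 1910 CPM.

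Calls among genes of the blastema, the nail Wnt signal and the cell cycle stand beside the 3.83% of all tested genes that were called. Of 20 digit and blastema genes, Mest, an imprinted gene of embryonic mesoderm, was called higher (4.79-fold, edgeR adjusted p = 0.019), and it shares 909 exon bases with Copg2 and lost its call without 0 h replicate 2 or 3. Msx1, a transcription factor of the digit tip, was at 12.5, 11.2 and 15.7 CPM at 0 h and at 6.93 (lowest), 12.8 (median) and 27.5 CPM (highest) at 7 d (0.09 ± 0.35 SE, adjusted p = 0.94), and Bmp4, a signal for bone growth, changed by -0.42 ± 0.27 SE (adjusted p = 0.49). Of 18 Wnt genes, the Wnt inhibitors Sfrp4 (4.4-fold) and Sfrp1 (1.63-fold) were higher and the ligand Wnt4 was lower, by 0.51 on the log2 scale, from 146.1 to 158.5 CPM to 80.5 to 137.3 CPM. Sfrp1 and Wnt4 lost their calls without any 1 of the 0 h mice, Sfrp1 also without 7 d replicate 3, 4, 5 or 6 and Wnt4 without 7 d replicate 5. The difference of Sfrp1 in log2(CPM + 1) was 0.07 (earlier campaign) and 0.97 (later campaign). Of 25 mitosis genes and 23 replication genes, none passed the edgeR test, with medians of -0.08 and 0.28. Top2a, which untangles DNA before division, was at 216.3 to 225.0 CPM at 0 h, and at 7 d at 155.9 and 146.0 CPM in the earlier campaign and 254.6 to 316.6 CPM in the later.

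Among vessels, 2 of 17 endothelial genes were higher, the junction gene Cdh5 (2.62-fold, adjusted p = 0.00047) and the VEGF receptor Flt1 (1.77-fold, adjusted p = 0.01), and Pecam1 was not called (0.59, adjusted p = 0.071). Cdh5 and Flt1 lost their calls in the later campaign alone, and Flt1 also without 0 h replicate 3. The endothelial list summed to 201.6 to 221.5 TPM at 0 h. At 7 d it summed to 401.0 and 447.1 TPM in the earlier campaign and 228.3 to 284.9 TPM in the later. Apln, a peptide made by sprouting vessel tips and other hypoxic cells, rose from 0.320 to 0.853 CPM to 11.3 to 21.2 CPM in all 6 mice (4.66 ± 0.69 SE, edgeR adjusted p = 7.48e-05). Of 19 genes of hypoxia and glycolysis, Egln3 alone was called (1.78-fold, adjusted p = 0.044), with overlapping groups and a call lost without any 1 of the 0 h mice or 7 d replicate 1, 5 or 6. None of the 13 cartilage, 12 interferon, 7 lymphoid and mast cell, 12 mural, 13 Schwann cell, 13 adipocyte, 6 muscle or 4 melanocyte genes tested was called by edgeR. With 3.83% of all tested genes called, no call in lists of this size is not a result about these tissues. Of 8 tendon genes, Fmod was higher and Egr1 lower, and Fmod lost its call without any 1 of the 0 h mice or 7 d replicate 5. Without 7 d replicate 3, the count of called members went from 1 to 2 among higher macrophage genes, lower osteoblast genes and higher wound epidermis genes, from 0 to 1 among higher cartilage genes, from 2 to 1 among higher Wnt genes, from 3 to 2 among lower erythroid genes, from 13 to 14 among higher repair matrix genes and from 1 to 0 among lower genes of resting epidermis. The median of osteoblast genes was then 0.61, that of blastema genes 0.25 and that of wound epidermis genes -0.15.

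**Figure D4:**
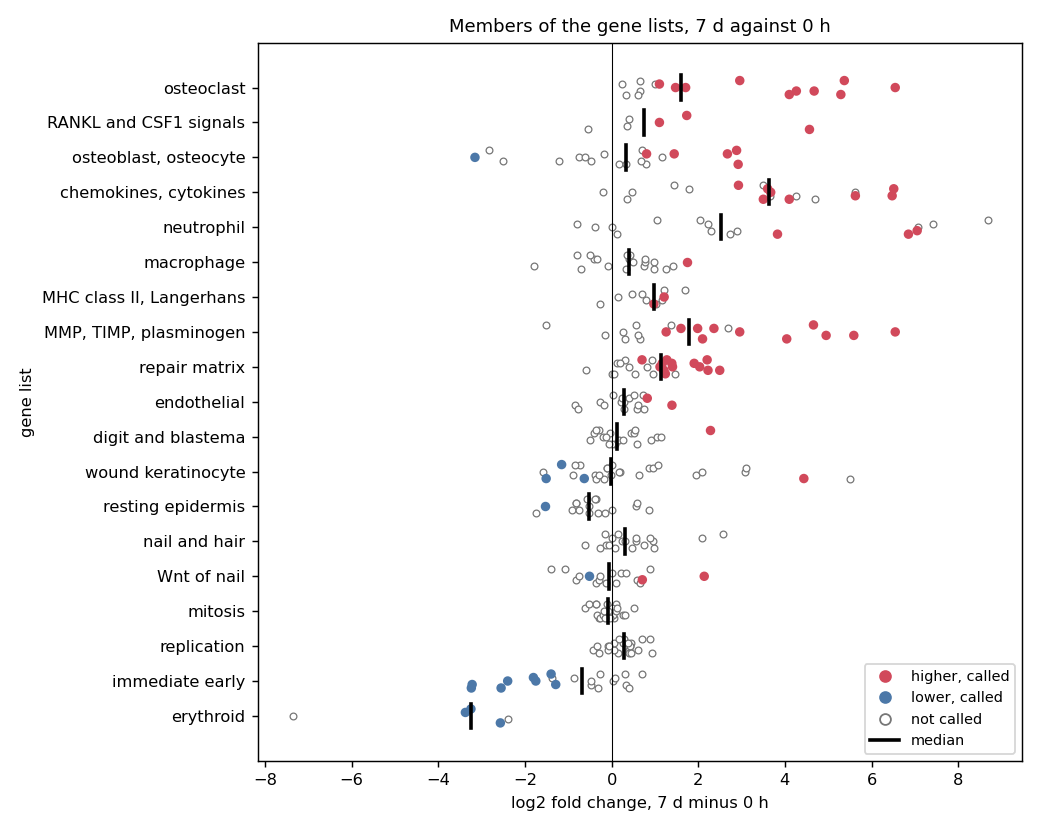
Each point is a tested member of a gene list, placed by its log2 fold change, 7 d minus 0 h, with red for members called higher, blue for members called lower, open circles for members not called and a black bar at the median of the list. The medians of osteoclast, chemokine, neutrophil, metalloproteinase and repair matrix genes lie above 1, those of mitosis and wound keratinocyte genes lie within 0.1 of 0, and that of erythroid genes is at -3.25.

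The neighbouring time points place these levels in time. They use the same 7 d mice, in the same fit. Against the 3 mice at 3 d, 2 of 13793 genes passed (0.0145%), both osteoclast genes and both higher at 7 d. Itgb3 was at 78.9, 39.7 and 33.3 CPM at 3 d and at least 127.6 CPM at 7 d (2.07 higher on the log2 scale, edgeR adjusted p = 0.0035). Ctsk was at 372.9, 217.2 and 231.4 CPM at 3 d and at least 567.0 CPM at 7 d (1.78 higher, adjusted p = 0.018). Both calls were lost without 3 d replicate 2 or 3, when no gene passed. Acp5 was 2.14 higher than at 3 d with an adjusted p of 0.068, and Tnfsf11, at 8.55, 14.1 and 26.0 CPM at 3 d, lay within the range of the 7 d mice.

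Against the 3 mice at 14 d, 274 genes differed (1.99%), 92 higher at 7 d (0.667%) and 182 lower at 7 d (1.32%). The count was 53 and 44 without 14 d replicates 2 and 3, and 418, 541, 164, 123 and 130 without 7 d replicates 1, 2, 3, 5 and 6. Osteoclast genes were higher at 7 d than at 14 d for Itgb3 (2.33, adjusted p = 0.00017), Ctsk (1.58, adjusted p = 0.0052) and Tnfrsf11a (0.90, adjusted p = 0.031), with 3 of 16 members called higher and none lower. Lif was 2.81 and Mmp3 2.45 higher at 7 d than at 14 d in log2 units. Bone formation genes went the other way, with 10 of 19 members lower at 7 d than at 14 d, 1 higher, and a median of -1.31. Col1a1 was at 18880, 15790 and 17830 CPM at 14 d, above every 7 d mouse (-1.76, edgeR adjusted p = 0.0011). Bglap2 was at 37.8, 34.9 and 18.8 CPM at 14 d (-4.11, adjusted p = 0.00028), Cthrc1 at 115.9 to 155.7 CPM (-1.91, adjusted p = 0.00017), and Sp7, a factor needed to make osteoblasts, at 32.3 to 52.8 CPM against 8.73 to 11.6 CPM at 7 d (-2.07, adjusted p = 0.00083). Spp1 was the member higher at 7 d (1.56, adjusted p = 0.0027). Of 26 repair matrix genes, 7 were lower at 7 d than at 14 d.

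**Figure D5:**
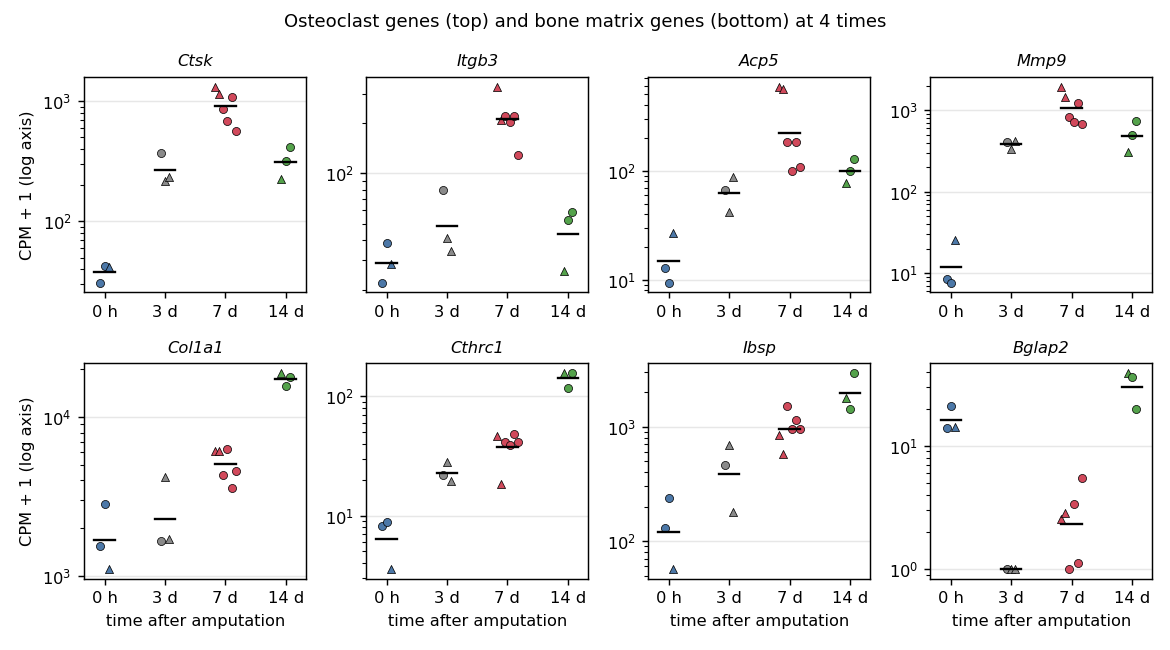
Osteoclast genes in the upper row and bone matrix genes in the lower row are shown in each mouse at 0 h, 3 d, 7 d and 14 d, as CPM + 1 on log axes of different range, with triangles for the earlier and circles for the later campaign and a bar at the geometric mean. Ctsk and Itgb3 have their highest points at 7 d, while Col1a1, Cthrc1 and Bglap2 have theirs at 14 d, and Bglap2 has no count at 3 d.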

How the data were processed

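Reads of 65 bases from poly(A) RNA of single mice, amplified by PCR with no molecular identifiers stated, were aligned by the authors with Bowtie to Ensembl v75 mouse genes (mm10), and RSEM 1.2.3 gave the deposited expected counts per gene, which are not normalized, and the deposited TPM, which are relative to all genes of a mouse. Of the expected counts, 78.1% were whole. Here they were rounded and tested with edgeR 4.0.16 in R 4.3.3 (TMM, filter on low counts by time point, quasi-likelihood F-test, time and campaign as terms, all 30 mice, Benjamini-Hochberg adjustment over 13793 of 20321 genes). The SE is the log2 fold change over the square root of F, and n is 3 mice at 0 h, 3 d and 14 d and 6 at 7 d. CPM use TMM library sizes. List sums are of TPM, and comparisons of levels between genes are not drawn from CPM. Coordinates and gene identifiers are those of GENCODE vM21 (GRCm38), matched by the transcript identifiers in the deposited table.

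The comparison, the gene lists and the named genes were chosen with earlier results of these data known. Named genes are the 15 with the largest rise and fall (adjusted p under 0.05, CPM of at least 5, no overlap), up to 6 called members per list and direction, up to 4 members per list with the highest CPM, cell type markers and a fixed set of 20 genes, and 15 others are named after their values were seen. A called gene that its list counts include is not reported here by name. The average TPM per time point, also deposited, were not used. Alternatives were another scaling (DESeq2 1.42.0 size factors), the DESeq2 test, limma 3.58.1 on log2(TPM + 1) or log2(TPM + 0.1), other filters, a threshold of 0.01, no campaign term, each campaign alone, the 2 times alone, removal of the mice labelled Left and of each mouse in turn. Tested on simulated counts of 13591 genes for 7 d against 0 h, the fit called 79% of the genes given a 4-fold change and 49% at 2-fold. False calls were 5.19% there. The simulated counts held no campaign effect, no change at other times and no library set apart from the rest. These rates may therefore not hold for the data. No pair of mice of 1 time point looked like 1 library used again (chi-square per degree of freedom of 11.7 or more). Counting intervals and the floor of 3 counts cover counting error only.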

Additional observations from a re-analysis of the deposited data

Results flagged for a closer look

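Among 135 measures, of which chance would flag about 6.75, 9 had a mouse at 7 d that lay far from the other 5, judged by how much of the spread of the 6 mice its distance from the next mouse took up. Replicate 3 was that mouse in 4 of them, with the fewest genes with a count (0.662 of the spread), the highest first principal component (0.710), and the lowest level of Lce1l (0.628) and Zfp36 (0.896). Replicate 2 had the lowest Cthrc1 (0.790), and replicate 5 the lowest Phex (0.782) and the highest Cxcl1 (0.685). Replicate 1 had the highest Ngp (1.0) and Retnlg (0.680), 2 granule genes of neutrophils. Gene levels were taken as log2(CPM + 1). No explanation of these values was tested.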

How the results depend on the processing

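Of the 86 named genes that were called at 7 d against 0 h, all kept their direction in every alternative, 27 kept the call in every alternative and 59 lost it in at least 1. The 27 include Ctsk, Acp5, Mmp9, Itgb3, Tnfsf11, Mmp13, Mmp3, Fos, Fosb, Egr1 and Jun. No scaling moved the median of all genes by over 0.1. The cause of the differences below was not tested, and fits that leave mice out also have fewer mice. Against 0 h, the 528 genes (345 higher, 183 lower) became 323 (91 lower) without the campaign term, 345 (104 lower) and 142 (120 higher, 22 lower) with only the mice of these times with and without the campaign term, and 152 (120 higher, 32 lower) in the earlier campaign alone. They became 327 (229 higher, 98 lower) with limma on log2(TPM + 0.1), 820 (577 higher) with the DESeq2 test and 219 (155 higher, 64 lower) at a threshold of 0.01. The lower genes were 80 without the mice labelled Left and 115 with limma on log2(TPM + 1). Leaving out 1 mouse gave 168 to 689 genes (131 to 474 higher, 37 to 215 lower).

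Against 3 d, the 2 genes became 6 with no filter on low counts, 16 without the mice labelled Left, 0 with only the mice of these times (with or without the campaign term), 1 with either limma fit and at a threshold of 0.01, 29 with the DESeq2 test, and 0 to 6 with 1 mouse left out. Against 14 d, the 274 genes (92 higher, 182 lower) became 60 (11 and 49) without the campaign term, 72 (33 and 39) without the mice labelled Left, and 61 (12 and 49) or 15 (2 and 13) with only the mice of these times, with or without the campaign term. They became 143 (47 and 96) or 93 (28 and 65) with limma on log2(TPM + 1) or log2(TPM + 0.1), 650 (342 and 308) with the DESeq2 test, 59 (12 and 47) at a threshold of 0.01, and 44 to 541 (8 to 267 and 31 to 274) with 1 mouse left out. No gene differed between campaigns at an adjusted p under 0.05 in edgeR, with 21 mice or with the 9 mice of 0 h and 7 d (971 at an unadjusted p under 0.05). Replicate numbers were given in accession order and pair no mice. No paired analysis was possible because the labels give no replicate numbers. Of the code numbers in the titles, the mice at 0 h and 7 d share 1, those at 3 d and 7 d share 2 and those at 14 d and 7 d share none, and no fit used the code.

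With 3 mice at 0 h, of which 1 is in the earlier campaign, a p above the threshold does not show that a gene kept its level. Tissue makeup, campaign and foot are not separated within 7 d, since all mice labelled Left are of the later campaign.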
